A study of Mus musculus with 7 samples.

Results

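The promoters of 4 lineage transcription factors, Pax7, Neurog1, Olig2 and Lhx2, were examined for DNA methylation in mouse J1 embryonic stem cells. The members are the cytosine sites that the deposited tables list inside 4 fixed mm10 windows, one around each gene's start. There are 7 sites at Pax7, 2 at Neurog1, 6 at Olig2 and 7 at Lhx2, which makes 22 of 18189 sites in the table of the rescue experiment. The same 22 sites are among the 21989 of the table of the Mof knockdown. The question set for them was whether developmental promoters that lack methylation gain it when UHRF1 is put back into cells without it.

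Methylation was measured by reduced representation bisulfite sequencing, in which restriction enzymes enrich CpG-rich fragments and bisulfite converts unmethylated cytosines. All cells were J1 embryonic stem cells grown on gelatin in serum with leukemia inhibitory factor. Wild-type cells and Uhrf1-/- cells have 2 libraries each. The wild-type rescue is Uhrf1-/- carrying flag-myc-tagged wild-type human UHRF1 from a transfected plasmid, and the 3KR rescue is Uhrf1-/- carrying that protein with K667R, K668R and K670R. Rescued cells were selected with hygromycin and picked as single colonies, and each rescue has 1 library. The stable Mof knockdown also has 1 library, and no change to its Uhrf1 gene is labelled. A difference that involves a rescue or the knockdown therefore has no replicate check, and the colony and the transgene cannot be told apart. Whether replicate libraries derive from independent cultures is not labelled, and p-values measure only the spread between libraries, which may be technical. Methylation tables hold no expression, so the cell type could not be checked by marker transcripts.

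UHRF1 binds hemimethylated CpGs behind the replication fork and recruits the maintenance methyltransferase DNMT1, while MOF is a lysine acetyltransferase. Pax7 encodes a paired-box factor of muscle satellite cells and the neural crest, and Neurog1 a proneural basic helix-loop-helix factor of sensory neurons. Olig2 encodes a basic helix-loop-helix factor of oligodendrocytes and motor neurons, and Lhx2 a LIM-homeodomain factor of the forebrain and eye. In embryonic stem cells the CpG-rich starts of such genes are known to be kept silent by Polycomb proteins and to be largely free of DNA methylation.

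The 7 Lhx2 sites lie at 38350838 to 38350962 on chromosome 2, minus strand, 81 to 205 bases after the authors' start of transcript ENSMUST00000000253.5. They are in an island shore, inside the RefSeq span of the Lhx2 gene, but the RefSeq start used for Lhx2 lies downstream of them, so that they are at -470 to -346 bases from it. They are the only sites of the 22 that fall inside a promoter window of RefSeq (GRCm38.p6, the assembly behind mm10), that of the opposite-strand gene Gm27197. The measured stretch is shown because the sites can be read in it: the 7 sampled cytosines and their guanines are in capitals. It is chr2:38350817-38350982, minus strand. All 7 sites sit on a CpG, and the 166 bases hold 9 CpGs.
Lhx2 measured stretch: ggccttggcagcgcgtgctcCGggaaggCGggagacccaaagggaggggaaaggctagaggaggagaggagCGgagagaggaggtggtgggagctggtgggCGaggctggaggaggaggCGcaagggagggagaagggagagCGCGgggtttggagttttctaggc

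The other 15 sites lie farther from the starts of their genes. For these genes the 250 bases before the RefSeq start are shown, to give the base composition of these promoters, since the sequence under the sites was not used here. From these RefSeq starts the sites lie at 477 to 634 bases (Pax7), 955 and 958 bases (Neurog1) and -777 to -651 bases (Olig2). Capitals mark every CpG (the motif CG, which reads the same on both strands), and no sampled site lies in these stretches. The Pax7 stretch is chr4:139832969-139833218, minus strand, that of Neurog1 is chr13:56252181-56252430, minus strand, and that of Olig2 is chr16:91225300-91225549, plus strand.
Pax7: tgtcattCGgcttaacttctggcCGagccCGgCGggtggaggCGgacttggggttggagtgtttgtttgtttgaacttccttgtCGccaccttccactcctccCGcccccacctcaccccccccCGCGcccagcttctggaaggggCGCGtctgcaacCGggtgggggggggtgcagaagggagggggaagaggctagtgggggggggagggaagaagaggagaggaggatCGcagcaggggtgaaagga
Neurog1: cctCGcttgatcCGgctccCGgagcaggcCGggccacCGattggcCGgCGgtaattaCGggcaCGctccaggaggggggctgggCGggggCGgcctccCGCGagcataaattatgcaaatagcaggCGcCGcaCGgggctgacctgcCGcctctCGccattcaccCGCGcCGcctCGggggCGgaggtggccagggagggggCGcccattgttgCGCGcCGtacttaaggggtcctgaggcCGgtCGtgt
Olig2: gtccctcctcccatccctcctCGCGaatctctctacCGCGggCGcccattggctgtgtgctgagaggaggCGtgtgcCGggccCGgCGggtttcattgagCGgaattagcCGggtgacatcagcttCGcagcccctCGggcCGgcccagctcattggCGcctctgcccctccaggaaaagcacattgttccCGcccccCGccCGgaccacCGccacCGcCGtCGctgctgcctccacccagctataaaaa

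The Pax7 stretch has 13 CpGs, that of Olig2 22 and that of Neurog1 29, beside a median of 6 in the same 250 bases of 32851 RefSeq promoters, of which 92.1% hold at least 1 CpG. As many CpGs as at Pax7 were found in 31.5% of promoters, as many as at Olig2 in 14.8% and as many as at Neurog1 in 6.78%. The Pax7 sites (chromosome 4, 139832334 to 139832491, plus strand) lie in a CpG island 517 to 674 bases after the start of ENSMUST00000174681.1, inside the gene. The Neurog1 sites (chromosome 13, 56251222 and 56251225, plus strand) lie in an island shore 942 and 939 bases after the start of ENSMUST00000058475.5, inside the gene. The Olig2 sites (chromosome 16, 91224773 to 91224899, minus strand) lie in an island shore, at distances of -684 to -558 bases from the start of ENSMUST00000035608.9, before the gene.

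Read depth sets what can be seen at these sites. Over all sites of a table the libraries had 257860 to 668870 reads, a median of 10 to 22 per site and at least 5 at every site. Over the rescue table, mean methylation in wild type was 48.3% and 50.02%, and 9.36% and 9.82% in Uhrf1-/-. The wild-type rescue had 45.3% and the 3KR rescue 15.2%. Levels below are methylated over total reads of a window, with Wilson 95% intervals, and a count of 0 is given with the limit that 3 reads of that total would make. Intervals and limits cover counting error only, because the reads carry no molecular identifiers. No rate of bisulfite conversion was used here, so every unconverted read counts as methylated, which matters most at the lowest levels. Neighbouring sites are read by the same fragments and are not independent. A fragment can therefore count at several sites of a window, and the pooled intervals and limits are narrower than they should be.

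Summed over the 4 windows, few reads were methylated in any library of the rescue table, and the wild-type rescue held the most. Over the 22 sites the wild-type rescue had 22 methylated of 1147 reads, or 1.92%. Wild type had 8 of 817 (0.979%) and 5 of 774 (0.646%), Uhrf1-/- had 2 of 469 (0.426%) and 2 of 298 (0.671%), and the 3KR rescue had 6 of 495 (1.21%). The windows did not share 1 pattern: Pax7 and Neurog1 had their highest level in the wild-type rescue, Olig2 had it in a wild-type library, and Lhx2 had no methylated read in the wild-type rescue.

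At Pax7 the methylated reads of the wild-type rescue came mostly from a single CpG. Over the 7 sites it had 13 methylated of 320 reads, 4.06% (2.39% to 6.83%). Wild type had 0 of 188 (limit 1.60%) and 0 of 262 (limit 1.15%), so the rescue lay above both wild-type libraries. Uhrf1-/- had 2 of 172, 1.16% (0.319% to 4.14%), and 1 of 117, 0.855% (0.151% to 4.68%). The 3KR rescue had 0 of 120 (limit 2.50%) and the Mof knockdown 0 of 176 (limit 1.70%). The intervals of the wild-type rescue and of each Uhrf1-/- library overlapped.

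The CpG at 139832376 gave 10 of those 13 methylated reads. The wild-type rescue had 10 methylated of 52 reads there (19.2%), while wild type had 0 of 31 and 0 of 43, Uhrf1-/- 0 of 28 and 0 of 19, the 3KR rescue 0 of 20 and the Mof knockdown 0 of 30. The CpG at 139832380, 4 bases away on the same strand, had 0 of 54 reads methylated in the wild-type rescue and 0 in every other library, at 20 to 44 reads. Of the remaining rescue reads, 2 of 54 were methylated at 139832407 and 1 of 27 at 139832491. Without the site at 139832376 the window stood at 3 of 268 reads in the wild-type rescue, 1.12%.

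Both Uhrf1-/- libraries had a methylated read at the most distal Pax7 site, 139832334, with 1 of 15 and 1 of 10 reads. Wild type had 0 of 14 and 0 of 22 there, and the wild-type rescue 0 of 26. Uhrf1-/- library 1 had its other methylated read at 139832491, at 1 of 15 reads, and library 2 had 0 of 9 there. These are single reads, and the wild-type zeros at 139832334 allow up to 21.4% and 13.6%.

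At Neurog1 all methylated reads of the experiment lay at 1 CpG in the wild-type rescue. The rescue had 7 methylated of 33 reads at 56251222 (21.2%) and 0 of 32 at 56251225, a CpG 3 bases away. Over both sites it had 7 of 65 reads, 10.8% (5.32% to 20.6%). Every other library was at 0, with far fewer reads: 0 of 24 and 0 of 20 in wild type, 0 of 19 and 0 of 27 in Uhrf1-/-, 0 of 16 in the 3KR rescue and 0 of 12 in the Mof knockdown. These zeros allow levels of 12.5%, 15.0%, 15.8%, 11.1%, 18.8% and 25%, which all exceed the rescue's level. A difference of that size was not detectable at the depth of any single other library.

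At Olig2 no library stood above the others beyond its counting interval. Wild-type library 2 was highest with 4 of 151 reads, 2.65% (1.03% to 6.61%), while library 1 had 0 of 81 (limit 3.70%). The 3KR rescue had 2 of 93, 2.15% (0.592% to 7.51%), and the wild-type rescue 2 of 102, 1.96% (0.539% to 6.87%). Uhrf1-/- had 0 of 117 (limit 2.56%) and 1 of 98, 1.02% (0.180% to 5.56%), and the Mof knockdown 0 of 54 (limit 5.56%). The methylated reads again sat at 1 CpG. The site 91224860 held all 4 of wild-type library 2 (of 23 reads), both of the 3KR rescue (of 16) and both of the wild-type rescue (of 18). It had 0 of 14 in wild-type library 1, 0 of 20 and 0 of 14 in Uhrf1-/- and 0 of 9 in the Mof knockdown. The single methylated read of Uhrf1-/- library 2 was at 91224773, at 1 of 15.

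Lhx2, the deepest of the windows, had no methylated read in the wild-type rescue. The rescue had 0 of 660 reads, which limits its level to 0.455%. Wild type had 8 of 524, 1.53% (0.776% to 2.98%), and 1 of 341, 0.293% (0.0518% to 1.64%). Uhrf1-/- had 0 of 161 (limit 1.86%) and 0 of 56 (limit 5.36%), the 3KR rescue 4 of 266, 1.504% (0.586% to 3.80%), and the Mof knockdown 2 of 388, 0.515% (0.141% to 1.86%). The rescue's level was thus below that of wild-type library 1, where 8 reads were counted as methylated, and its limit was above the level of wild-type library 2. Incomplete conversion was not tested as a source of so few reads. Wild-type library 1 had its methylated reads at 38350863 (4 of 72), 38350840 (2 of 71) and 38350962 (2 of 74), and library 2 at 38350838 (1 of 48). In the 3KR rescue they were at 38350840 (2 of 35) and 38350954 (2 of 40), and in the knockdown at 38350962 (2 of 54). No Lhx2 site exceeded 5.71% in any library, and the methylated reads were spread over 5 of the 7 sites.

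**Figure D1:**
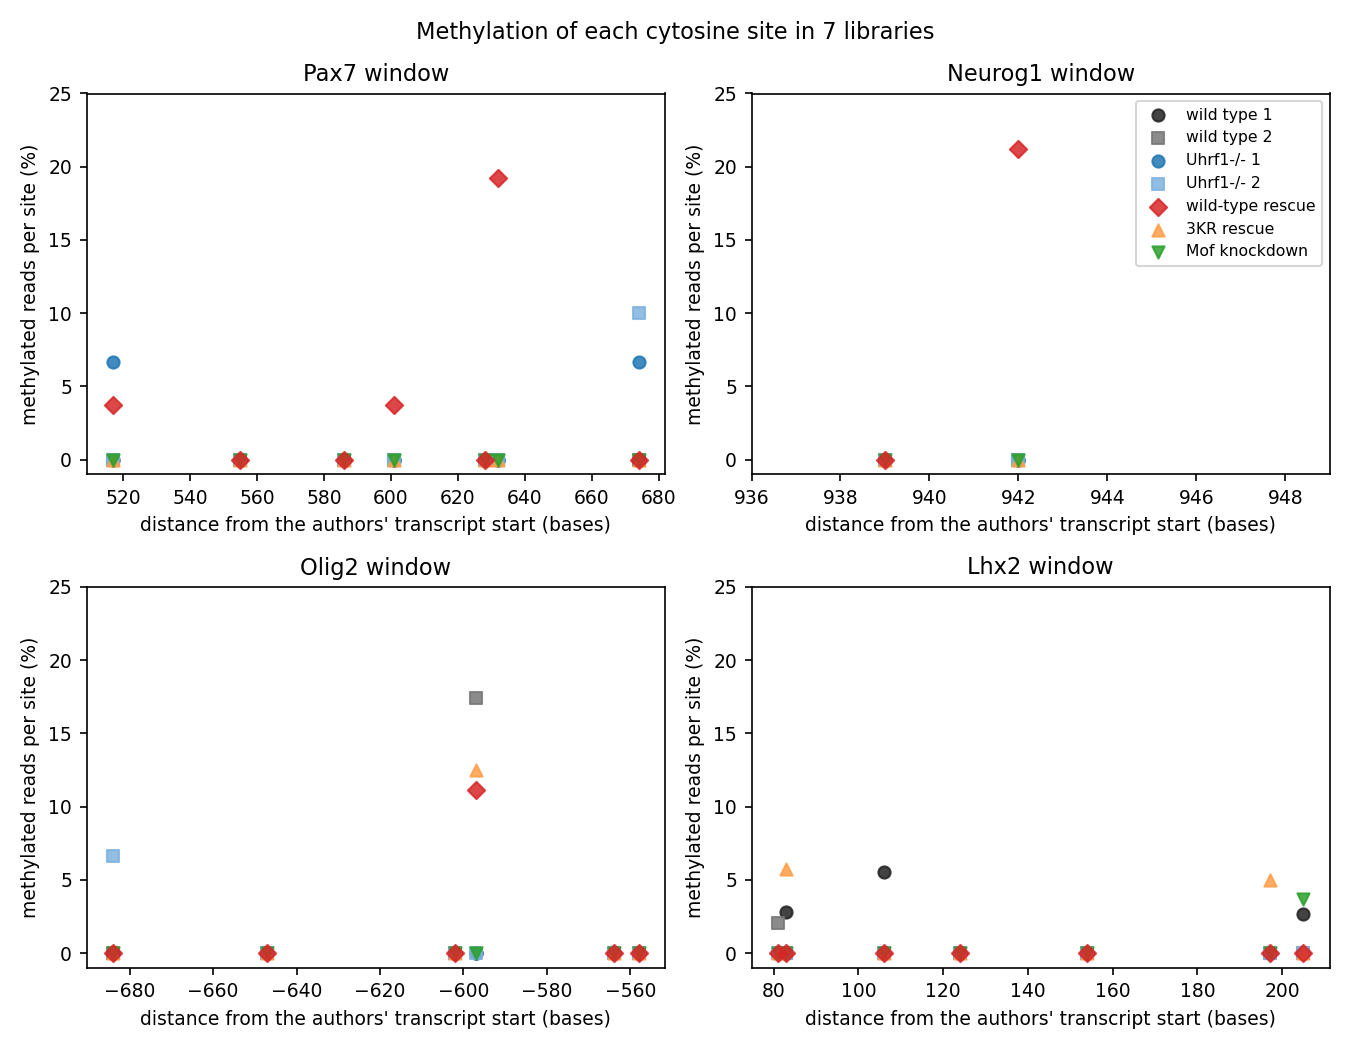
Percent of methylated reads (y axis) at each site against its distance in bases from the authors' transcript start (x axis), with 1 marker per library. The wild-type rescue stands at 19.2% at 1 Pax7 site and at 21.2% at 1 Neurog1 site beside sites at 0, and it is at 0 at every Lhx2 site.

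**Figure D2:**
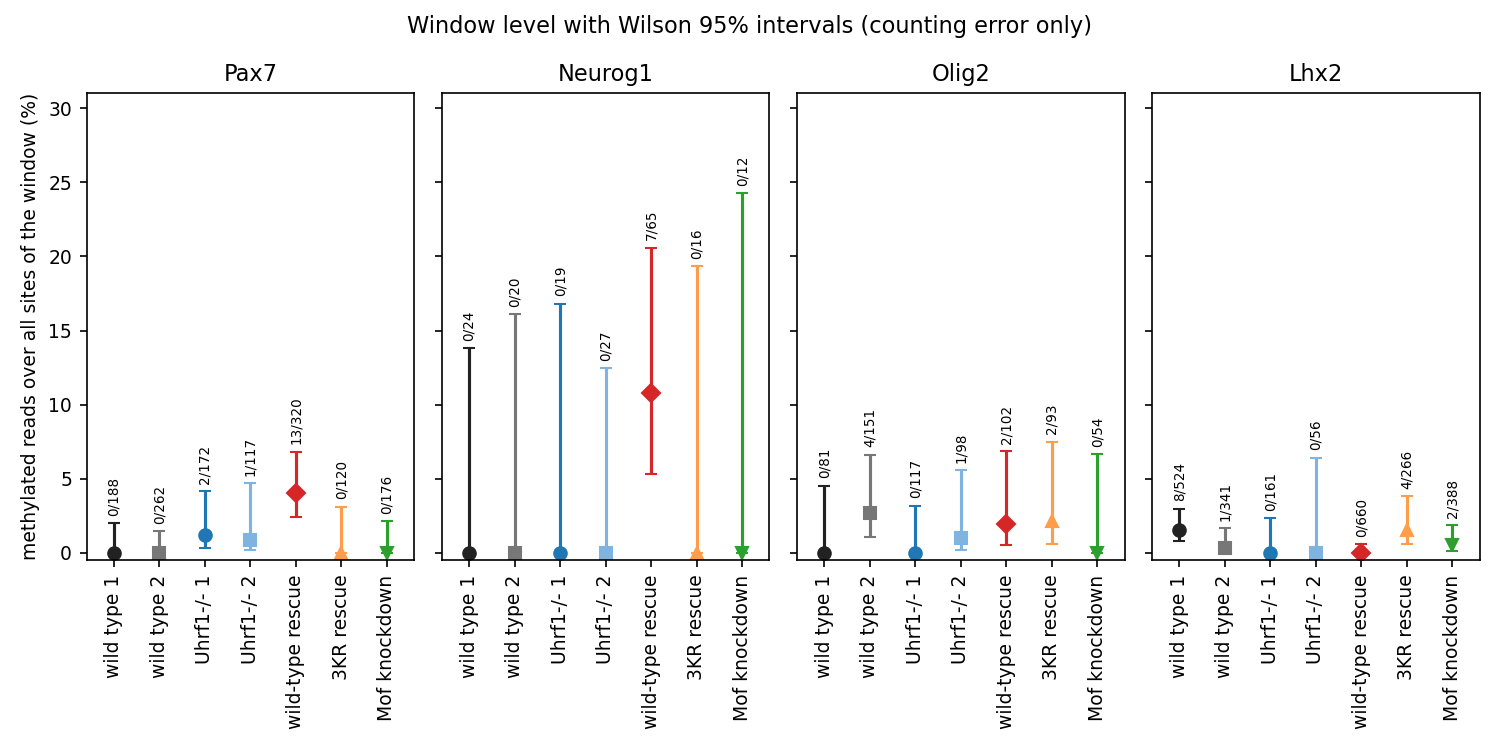
Percent of methylated reads over all sites of a window (y axis) in each of 7 libraries (x axis), with Wilson 95% intervals and the methylated and total reads above each. The wild-type rescue is at 4.06% at Pax7 and 10.8% at Neurog1, and intervals at Neurog1 are wide because the other libraries have 12 to 27 reads.

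A test across all promoters called none of the 4 windows changed between Uhrf1-/- and wild type. edgeR's quasi-likelihood test was fitted to 1473 promoter regions (the 4 windows and, for every other gene, its sites near a transcript start), of which 1320 had both methylated and unmethylated reads. With Benjamini-Hochberg adjustment it called 29.3% of them lower and 0.0% higher in Uhrf1-/- than in wild type (at an unadjusted p under 0.05, 40.9% and 0.303%). Among the windows, 0 of 4 were called, also at an unadjusted p under 0.05 and by limma, which called 28.6% lower and 0.455% higher. By size, 0 of 4 rose by 5 percentage points, beside 2.78% of 1473 regions. A fall of 5 points, found in 52.7% of regions, was not possible at the windows, which stood at no more than 2.65% in wild type. The adjusted p was 0.185 at Pax7, which measured 1.01% in Uhrf1-/- and 0% in wild type on average, 0.273 at Lhx2 (0% and 0.910%), 0.605 at Olig2 (0.510% and 1.32%) and 1 at Neurog1 (0% in both). The 95% Newcombe interval of the difference in pooled reads was -1.97 to 0.767 points at Lhx2 and -3.91 to 1.11 at Olig2. It was -0.0505 to 3.01 points at Pax7 and -8.03 to 7.71 at Neurog1. The lack of a call therefore does not show that a window did not change. Without Uhrf1-/- library 1 or library 2 edgeR called 0 regions of the whole table, and without wild-type library 2 it called 177 of 1295.

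In the wild-type rescue, Neurog1 was 10.8 points above the Uhrf1-/- mean, Pax7 3.05 points, Olig2 1.45 points and Lhx2 0 points. Thus 1 of 4 windows gained at least 5 points, beside 57.4% of all 1473 regions, while the Uhrf1-/- levels left no room for a loss of that size, found in 2.65% of regions. edgeR, with the spread of the replicated groups lent to the lone rescue library, called 10.8% of regions higher and 0.0% lower, and 0 of 4 windows. At an unadjusted p under 0.05 it had 0 of 4 windows as well, beside 32.2% of regions higher and 0.0758% lower. With 1 rescue library, the lack of a call does not show that a window did not change. The adjusted p was 0.262 at Neurog1, 0.402 at Pax7, 0.578 at Olig2 and 1 at Lhx2. The Newcombe interval of the gain was 1.33 to 20.6 points at Neurog1, 0.441 to 5.87 at Pax7, -1.06 to 6.42 at Olig2 and -1.74 to 0.579 at Lhx2. limma on the percentages, which treats shallow and deep windows alike, called Neurog1 (adjusted p = 0.0134) and not Pax7 (adjusted p = 0.0626), beside 29.3% of regions higher and 0.152% lower. At Neurog1 the spread within wild type and within Uhrf1-/- was 0, since all their shallow libraries were at 0. The limma calls of Neurog1, here and below, therefore rest on the spread of other regions. The site 139832376, chosen for its methylated reads in the rescue, carried the difference at Pax7, which was -0.0852 points without it. At Neurog1 all of the gain lay at 56251222. Without either Uhrf1-/- library edgeR called 0 regions of the table.

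Against wild type, the rescue was 10.8 points higher at Neurog1, 4.06 at Pax7 and 0.636 at Olig2, and at Lhx2 the difference was -0.910 points. Of the windows, 1 of 4 was at least 5 points higher, beside 24.0% of all regions, while the wild-type levels left no room for a fall of 5 points, found in 25.9%. edgeR called 0.0% of regions in either direction (3.26% higher and 1.74% lower at an unadjusted p under 0.05), so 0 of 4 windows. At an unadjusted p under 0.05 by edgeR's quasi-likelihood test, 1 window was higher and 1 lower. The higher window was Pax7 (edgeR adjusted p = 0.883) and the lower one Lhx2 (edgeR adjusted p = 0.928). limma called Neurog1 (adjusted p = 0.0221) and no other window, beside 3.86% of regions higher and 1.82% lower. Fisher's exact test on the reads, two-sided, which compares libraries and not conditions, gave Pax7 an adjusted p of 0.0255 against wild-type library 1 and 0.00444 against library 2, where it called 7.81% and 7.4% of regions higher. For Lhx2 its adjusted p was 0.0158 against wild-type library 1 and 0.730 against library 2, so the lower level of the rescue rested on library 1. It called 5.63% and 9.64% of regions lower against these libraries. The pooled reads of a window can count a fragment at several sites, so these p-values can be too small. At the single Pax7 site 139832376 the same test, adjusted over 18189 sites, gave 0.126 and 0.0233 against the wild-type libraries and 0.0285 and 0.109 against the Uhrf1-/- libraries. At the Neurog1 site 56251222 it gave 0.551, 0.499, 0.494 and 0.166 in that order. At single Lhx2 sites its smallest adjusted p against wild-type library 1 was 0.231, at 38350863. The shares of all sites it called higher were 2.64% and 2.99% against wild type and 46.6% and 42.9% against Uhrf1-/-. Against the 3KR rescue, where it called 39.1%, the Pax7 site had an adjusted p of 0.116 and the Neurog1 site 0.518.

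The authors' deposited table gives each site a difference from wild type with a p and a q of a test that is not named. For the wild-type rescue it lists 2 of the 22 sites with a q under 0.05, both higher: 139832376 at Pax7 (19.2 points, q = 0.000263) and 56251222 at Neurog1 (21.2 points, q = 0.0228). Over its 18189 sites 7.73% were higher and 15.2% lower by that rule. For Uhrf1-/- the authors' deposited table lists 1 site higher, 139832334 at Pax7 (8 points, q = 0.0325, p = 0.0555), and 1 lower, 91224860 at Olig2 (-10.8 points, q = 0.0124, p = 0.0198), beside 2.12% and 65.7% of all sites. For the 3KR rescue the authors' deposited table lists 1 site higher, 38350954 at Lhx2 (q = 0.0164, p = 0.0170), and 0 lower, beside 1.83% and 55.5% of all sites. At these Uhrf1-/- and 3KR sites the q in the authors' deposited table is smaller than the p. For the Mof knockdown the authors' deposited table has 0 of 22 sites by that rule, beside 2.18% of 21989 higher and 12.5% lower.

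The 3KR rescue had no methylated read at Pax7 or Neurog1. Against the wild-type rescue it was -10.8 points at Neurog1 and -4.06 at Pax7, while Olig2 differed by 0.190 points and Lhx2 by 1.504. edgeR called 0.152% of regions lower, 0.0% higher, and 0 of 4 windows. At an unadjusted p under 0.05 it had 1 window higher, Lhx2 (edgeR adjusted p = 0.249), beside 0.152% of regions higher and 15.8% lower. limma called Neurog1 lower (adjusted p = 0.0211), beside 16.3% of regions lower and 1.14% higher. Fisher's exact test between the 2 libraries gave an adjusted p of 0.0179 at Lhx2, where the 3KR rescue was higher, 0.0570 at Pax7 and 0.573 at Neurog1, where the 3KR rescue had 16 reads. It called 0.611% of regions higher and 40.8% lower. At single Lhx2 sites its smallest adjusted p was 0.158, at 38350840. By size, 1 of 4 windows was at least 5 points lower, beside 55.2% of all regions, and none higher, beside 3.19%. The Newcombe interval of the difference at Neurog1 was -20.6 to 9.35 points, which includes a rise.

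Against Uhrf1-/-, the 3KR rescue differed by 1.64 points at Olig2, 1.504 at Lhx2, 0 at Neurog1 and -1.01 at Pax7. No window rose by 5 points, beside 26.1% of all regions, and none could fall by as much, as 11.0% did; edgeR called 0 of 4, with an adjusted p of 1 at each, beside 0.0758% of regions higher and 0.0% lower. At an unadjusted p under 0.05 edgeR had 0 of 4, beside 2.73% higher and 0.152% lower, and limma called 0 of 4, beside 0.985% and 0.0758%. The comparisons of the rescues with Uhrf1-/- share the Uhrf1-/- libraries.

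In the Mof knockdown, Pax7, Neurog1 and Olig2 had no methylated read and Lhx2 had 2 of 388. The differences from wild type were -1.32 points at Olig2 and -0.395 at Lhx2. edgeR could test only these, with adjusted p = 0.720 at Olig2 and 0.803 at Lhx2, and called 0.0% of 1351 regions (0.888% higher and 3.48% lower at an unadjusted p under 0.05, none a window). limma also called 0 windows and 0.0% of regions. By size, 0 of 4 windows rose by 5 points, beside 12.9% of 1693 regions. As above, the windows could not fall by 5 points, as 37.7% of regions did. The Newcombe interval reached 24.2 points at Neurog1, where the knockdown had 12 reads, and 2.14 points at Pax7.

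Most promoters that were unmethylated in wild type stayed within 5 points of Uhrf1-/- in the wild-type rescue, and the 4 windows can be read against them. Of the 1473 regions, 596 were under 5% in both wild-type libraries, the 4 windows among them. In the wild-type rescue 84 of these 596 (14.1%) were at least 5 points above the Uhrf1-/- mean, 25 (a count limited by the low Uhrf1-/- levels) were at least 5 points below it, and the median difference was 0 points. By any amount, 224 of them (37.6%) were above the Uhrf1-/- mean. Among those with at least 3 sites, which leaves out Neurog1, 43 of 414 (10.4%) were at least 5 points above it and 3 at least 5 points below. Against the wild-type mean, 89 of the 596 (14.9%) were at least 5 points higher. The regions were chosen for low levels in these same wild-type libraries, so none could be 5 points lower. How much of the 14.9% comes from that choice was not tested. In the 3KR rescue 30 of the 596 (5.03%) were at least 5 points above Uhrf1-/-. Between the Uhrf1-/- libraries themselves, 30 were at least 5 points higher in library 1 (5.03%) and 35 higher in library 2. Of regions made mostly of island sites, as Pax7 is, 4.17% gained 5 points in the wild-type rescue, and of those made mostly of shore sites, as the other windows are, 16.4% did. The windows' own count was 0 of 1 mostly island and 1 of 3 mostly shore regions.

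**Figure D3:**
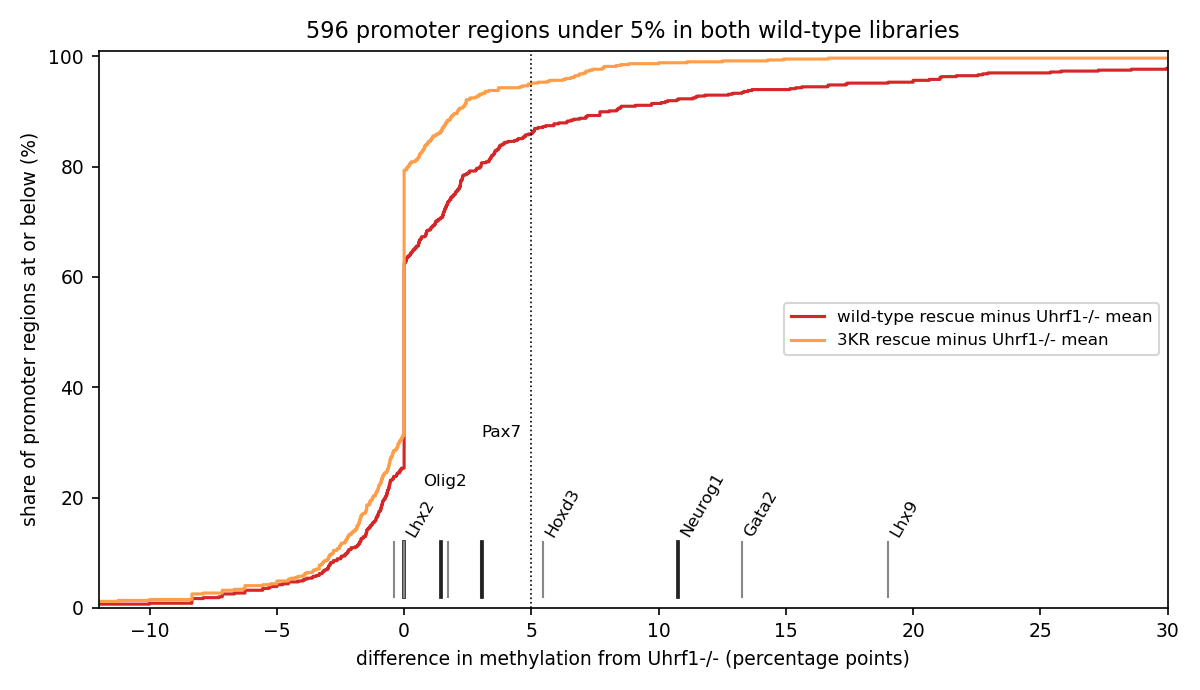
Cumulative share of the 596 promoter regions under 5% in both wild-type libraries (y axis, percent) by their difference from the Uhrf1-/- mean (x axis, percentage points), for the wild-type rescue and the 3KR rescue. Ticks mark the 13 lineage factors among them at their wild-type rescue difference, dark for the 4 windows, and 4 of the 13 lie right of the dotted line at 5 points.

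A methylated CpG next to an unmethylated one, as at Pax7 and Neurog1, was also found at other pairs of close sites. Pairs of sites at most 5 bases apart on 1 strand, with at least 20 reads each and no methylated read in wild type, numbered 177 in the wild-type rescue. In 12 of these pairs a site reached 15%, and in 9 of the 12 the other site was at 0. The Pax7 and Neurog1 pairs are among the 9. In the other libraries 4 of 149 pairs (Uhrf1-/- library 1), 2 of 82 (library 2) and 2 of 110 (3KR rescue) had that form. Over all such close pairs, whatever their wild-type level, 4.86% had it in the wild-type rescue. The share was 6.37% and 3.99% in Uhrf1-/-, 4.52% in the 3KR rescue and 2.53% and 3.80% in wild type. The limits of 15%, 5 bases and 20 reads were chosen after the values at Pax7 and Neurog1 were seen. Over single sites, 2880 promoter sites had no methylated read in wild type, and 6.91% of them reached 15% in the wild-type rescue, beside 2.12% and 2.57% in Uhrf1-/- and 2.47% in the 3KR rescue, at median depths of 18, 15, 12 and 13 reads. The Mof knockdown, with no rescue and a mean of 42.0% over its table, reached 15% at 4.31% of 3201 such sites, at a median of 10 reads. A site without a methylated read in the shallow wild-type libraries can still be partly methylated there.

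Other lineage transcription factors were taken from a list of 237 genes, of which 18 had promoter sites in the rescue table, the 4 windows included. Pax9, Meis1, Hoxd3, Pou4f1, Runx2 and Ebf3 were named only because the authors' transcript start lies inside the gene. No same-strand RefSeq start lies within 1 kb of that start, so their sites may not be at the main promoter. In the wild-type rescue 9 of the 18 were at least 5 points above the Uhrf1-/- mean and 0 were 5 points lower, with a median difference of 4.25 points, beside 57.4% of regions and a median of 11.8 points over all 1473. edgeR called 0 of the 17 that could be tested, beside 10.8% of regions. Of the 13 that were under 5% in both wild-type libraries, 4 gained 5 points (Neurog1, Lhx9, Gata2 and Hoxd3), beside 14.1% of the 596 regions. The median difference of the 13 was 1.71 points. In the 3KR rescue 0 of the 13 gained 5 points, beside 5.03%.

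Lhx9, which encodes a LIM-homeodomain factor related to Lhx2, had the highest level of those 13 in the wild-type rescue. Its 6 sites (chromosome 1, 138842264 to 138842400) had 91 methylated of 422 reads, 21.6% (17.9% to 25.7%). Wild type had 1 of 79 and 2 of 89, Uhrf1-/- 1 of 72 and 2 of 54, and the 3KR rescue 0 of 157. Over the Lhx9 sites in the table of the Mof knockdown, the mean of the wild-type libraries was 13.1%. The level under 5% in wild type thus holds for the sites of the rescue table. In the wild-type rescue 5 of these 6 sites had methylated reads, with up to 39 of 94 at a site. At Pax7 3 of 7 sites had them, and at Neurog1 1 of 2. edgeR gave Lhx9 an adjusted p of 0.154 against Uhrf1-/- and 0.883 against wild type.

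Gata2, a factor of blood progenitors, had 8 of 54 reads methylated in the wild-type rescue, 14.8% (7.70% to 26.6%), beside 0 of 35 in each wild-type library, 0 of 49 and 2 of 65 in Uhrf1-/- and 0 of 24 in the 3KR rescue. Hoxd3, of the HoxD cluster, had 11 of 202 (5.45%) in the wild-type rescue, beside 1.31% and 4.94% in wild type and 0 in both Uhrf1-/- libraries. Its 11 sites lie between 74711860 and 74733688 on chromosome 2 and so by more than 1 start. In the wild-type rescue its methylated reads lay at 2 of these sites, and the unweighted mean of the sites was 2.66%. Pax2, a paired-box factor of the kidney, had 1.71%, with all 4 methylated reads at 1 of its 5 sites, beside 3.04% and 0% in wild type. Pou4f1, a sensory neuron factor, had 4.38%, beside 3.36% and 1.45% in wild type. Over the Pou4f1 sites in the table of the Mof knockdown, the wild-type mean was 9.03%. Sox21, Pitx3 and Ebf1, which act in neural progenitors, dopaminergic neurons and B cells, had 0 methylated of 112, 142 and 267 reads in the wild-type rescue, as Lhx2 had. Pax9, a paired-box factor of the pharyngeal pouches, and Runx2, of bone, were over 5% in wild-type library 2. They measured 11.98% and 16.3% in the wild-type rescue, beside 8.63% and 24.6% in that library and 0% in wild-type library 1. Ebf3, a factor of neurons and muscle, was measured by a transcript start inside the gene, outside islands and shores. These sites stood at 91.7% and 82.9% in wild type, and edgeR called them lower in Uhrf1-/- (12.1% and 48.9%, adjusted p = 0.0252).

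**Figure D4:**
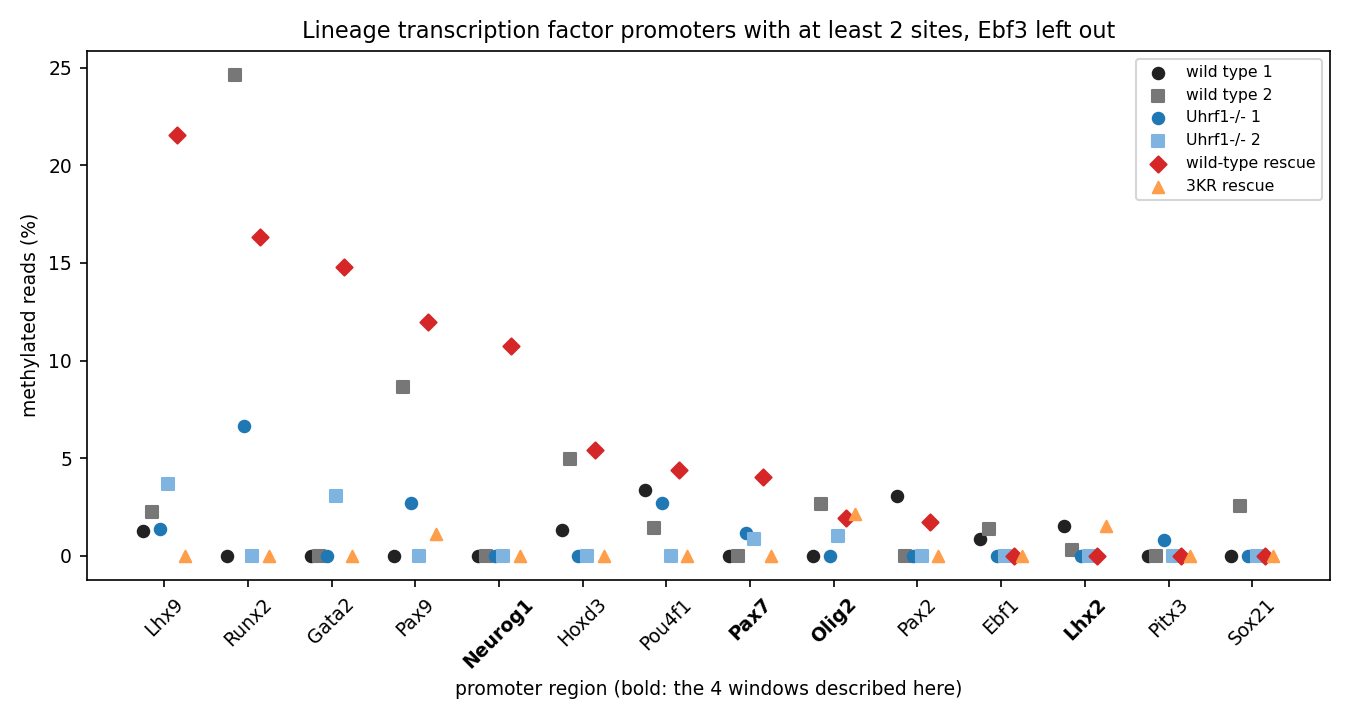
Percent of methylated reads (y axis) in each of 6 libraries for the lineage factor promoters with at least 2 sites (x axis), ordered by the wild-type rescue and without Ebf3. Lhx9 is highest in the wild-type rescue at 21.6%, and Lhx2, Ebf1, Pitx3 and Sox21 are at 0 in it.

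Among 618 other named promoters with at least 3 sites, the profiles nearest to each window over the 6 libraries of the rescue table were found by Euclidean distance. Nearest to Pax7 were 2810410L24Rik (1.49 points away, 3.70% in the wild-type rescue and 0% elsewhere) and Map3k11, a kinase gene (1.60 points, 4.76%). Nearest to Neurog1 were Myadml2 (0.668 points, 10.1%) and Srebf1, a regulator of lipid synthesis (1.05 points, 11.8%), both at 0% in the other 5 libraries. Nearest to Olig2 were Gm26627 (1.46 points) and Sinhcaf (1.48 points), and nearest to Lhx2 were Srd5a1, a steroid reductase gene (1.41 points), and Spcs1, of the signal peptidase (1.53 points). The median distance of the 618 was 9.04 to 12.1 points. Most of these profiles are near 0 in nearly all libraries, which leaves little to tell them apart.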

How the data were processed

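The authors deposited read counts per cytosine position and strand (total, methylated and unmethylated), the fraction of methylated reads, and a p-value and q-value with a difference of each group from wild type, per the file headers. BSMAP 2.73, Trim Galore, cutadapt and the build mm10 are named per the submitters' processing notes, while their order, the methylation caller and the test behind the p-values are unstated there. Every listed site has at least 5 reads in each library of its table, and wild-type reads were identical in both tables at the 22 sites.

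Percentages were recomputed here from the counts. Sites within about 1 kb of a transcript start were summed per gene, named by the nearest same-strand RefSeq start within 1 kb or by the gene that holds the start (2129 and 1537 of 5880 transcripts of the rescue table, and 2214 kept their transcript name). Regions were tested with edgeR 4.0.16 (quasi-likelihood, all libraries of a table, adjusted p under 0.05), with limma 3.58.1 and Fisher's exact test as alternatives (R 4.3.3, scipy 1.17.1). Gains were also counted at 5 points. The edgeR fit was tested on simulated data. Named by rule were all members, up to 12 list genes with at least 3 sites and the nearest profiles; genes in the closing observations were named after their values were seen. Members and lists were chosen with earlier results of these data known.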

Additional observations from a re-analysis of the deposited data

How the results depend on the processing

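edgeR called none of the windows under the alternatives run. Neurog1, with 2 sites and fewer than 10 reads at a site in some libraries, was not in the fits with at least 10 reads per site or at least 3 sites. Shares of regions called by edgeR depended on the tool: for the wild-type rescue against Uhrf1-/- 10.8% became 29.5% with limma and 38.2% with Fisher's exact test in every pair of libraries, against wild type 0% became 5.68% and 7.40%, for the 3KR rescue against the wild-type rescue 0.152% became 17.4% and 41.4%, and against Uhrf1-/- 0.0758% became 1.06% and 1.63%. With at least 10 reads per site the last 2 were 0% and 0.277% and the knockdown, from 0%, 0.377% (2 of 530). With at least 3 sites they were 0.510%, 0.128% and 0.607% (5 of 824 in the knockdown, 4 of them higher). The cause was not tested. At 10 reads, 98 of 361 regions were called in Uhrf1-/- and 47 of 361 in the wild-type rescue against it, and with at least 3 sites 221 and 119 of 784.

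Leaving out 1 library gave 0% to 21.0% for Uhrf1-/- against wild type, 0% to 13.5% for the wild-type rescue against Uhrf1-/-, 0% to 0.619% against wild type, 0% to 1.24% for the 3KR rescue against the wild-type rescue and 0% to 0.309% against Uhrf1-/-. For the knockdown this leaves no residual degrees of freedom, so no test was made. With the library number as a replicate block, edgeR called 23.5% of regions (285 of 1215, all lower) in Uhrf1-/- against wild type and no window. Deviations of same-numbered libraries correlated at 0.0529 across regions. Whether same-numbered libraries share a batch is not labelled and was not tested. Shares of regions past 5 points, with both directions summed, stayed within 1.5 times under all alternatives run. The rarer direction moved more: with at least 3 sites, 5 of 861 regions were 5 points higher in Uhrf1-/- than in wild type (41 of 1473 otherwise). In the same set 6 of 861 (39 of 1473) were 5 points lower in the wild-type rescue and 57 of 861 (162 of 1473) in the 3KR rescue, both against Uhrf1-/-. With at least 10 reads these counts were 8, 4 and 38 of 410. In the knockdown 96 of 996 regions with at least 3 sites and 44 of 649 with at least 10 reads were 5 points higher (219 of 1693 otherwise). Depth limits Neurog1 most, with 12 to 27 reads in the libraries other than the wild-type rescue.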

Other observations

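Genes of the Polycomb complexes had few promoter sites. Suz12, a subunit of Polycomb repressive complex 2, and Kdm2b, which recruits Polycomb repressive complex 1 to CpG islands, had 0 methylated reads in all 6 libraries of the rescue table, with 54 to 153 and 23 to 55 reads. In the knockdown table Cbx8, a chromodomain subunit, had 4 of 31 reads methylated in the Mof knockdown, beside 4 of 121 and 2 of 95 in wild type. Ezh1, a histone methyltransferase, measured 88.2% in the knockdown, beside 67.9% and 65.9%. The Wilson intervals of the knockdown and wild type overlapped at both genes. edgeR called 0 of the 2 Polycomb promoters it could test there, beside 0.0% of regions.

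Of 23 lineage factors measured in the knockdown table, 10 were at least 5 points lower than wild type and 2 higher, beside 37.7% and 12.9% of all regions. Ebf3, named by a transcript start inside the gene, measured 46.8% in the knockdown, beside 91.7% and 82.9% in wild type. edgeR did not call Ebf3 there, nor any other lineage factor that it could test in the knockdown. The knockdown has no replicate library, so the lower level at Ebf3 has no replicate check. Of the pluripotency list, 2 promoters were measured in the rescue table and 3 in the knockdown table, and 0 moved by 5 points in the rescues or the knockdown.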
